A study of Mus musculus with 8 samples.

Results

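The 10 mature microRNAs (miRNAs) described here are made by cells that meet lipopolysaccharide (LPS), the bacterial outer-membrane component sensed by Toll-like receptor 4 (TLR4). They are mmu-miR-155-5p, mmu-miR-155-3p, mmu-miR-146a-5p, mmu-miR-146b-5p, mmu-miR-21a-5p, mmu-miR-21a-3p, mmu-miR-132-3p, mmu-miR-212-3p, mmu-miR-147-3p and mmu-miR-187-3p, called below without the mouse prefix. They were chosen by name, by a rule that uses no signal, though earlier results of these data were known when they were listed. All 10 were on the array, as 10 of its 1881 miRNAs and 26 of its 4415 miRNA probes. The RNA came from exosomes, membrane vesicles shed by cells, in the amniotic fluid of pregnant mice, and was read on 8 single-colour Agilent arrays, 1 for each sample. In the LPS group (4 samples) the dams had received LPS into the peritoneum on day 14 of pregnancy, at 100 μg for each kg of body weight, and preterm birth followed after about 48 h. In the control group (4 samples) the fluid was collected at cesarean section, and the labels do not say whether those dams were injected. LPS and preterm birth came together in 1 group and cesarean section in the other, so LPS and the kind of delivery cannot be told apart. The labels give day 17 of pregnancy for all 8 samples, although birth about 48 h after day 14 would fall earlier. They name no strain, genotype or maternal age, and do not say that the samples of a group came from separate animals. The p-values therefore cover no more than the spread between the samples at hand, which may be technical. In such bulk RNA, fewer cells of a type and less RNA per cell cannot be told apart. Only miRNAs were measured, so the exosome label could not be checked against the proteins that define these vesicles.

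TLR4 passes its signal through the adaptors MyD88 and TRIF to the transcription factor NF-κB, which switches on inflammatory genes and, with them, several miRNA genes. In macrophages, miR-155-5p is a strongly induced amplifier of inflammation that represses Ship1 and Socs1. There, miR-146a-5p is a brake that represses the signalling proteins Irak1 and Traf6. miR-21 represses Pdcd4, and miR-132 and miR-212 are co-transcribed and repress, among others, the kinase Irak4. miR-147 and miR-187 are further miRNAs induced by LPS that lower cytokine output. TLR4 signalling in the uterus and fetal membranes is a known trigger of inflammation-driven preterm birth.

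A miRNA recognises its targets mainly through its seed, bases 2 to 8 from the 5′ end. The mature sequences below, from RefSeq (GRCm38.p6, 8 of the 10 miRNAs found), show which of these miRNAs share a seed, given in capitals, and how little separates the relatives that the array had to tell apart.
miR-155-5p: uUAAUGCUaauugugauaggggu
miR-146a-5p: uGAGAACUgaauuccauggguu
miR-146b-5p: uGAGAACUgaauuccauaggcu
miR-21a-5p: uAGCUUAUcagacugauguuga
miR-132-3p: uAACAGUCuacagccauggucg
miR-212-3p: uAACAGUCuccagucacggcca
The seed GAGAACU is shared by miR-146a-5p and miR-146b-5p and by no other of the 1679 mature mouse miRNAs in the RefSeq table. From miR-146a-5p to miR-146b-5p the sequence differs by G18A and U21C, with positions counted from the 5′ end of the miRNA. The seed AACAGUC is shared by miR-132-3p and miR-212-3p only, and these differ by A10C, C14U, U17C, U20C and G22A. miR-21a-5p shares its seed with miR-21c alone, and miR-155-5p shares its seed with none in the table. miR-147-3p and miR-187-3p have no entry in the table.

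Each miRNA was read by 2 or 4 probes, which differ from each other in length by 1 base at a time. Where the miRNA sequence was at hand, they pair with it from its 3′ end inward. The longer miR-146a-5p probe reaches base 4, within the seed, and the longer miR-212-3p probe reaches base 9. The brighter probes of the miR-146 pair and of miR-132 and miR-212 are shown because their specificity rests on a few bases, in capitals, which lie opposite the positions where the relatives differ.
miR-146a-5p, A_54_P2317: aAccCatggaattcagttc
miR-146b-5p, A_54_P2006: aGccTatggaattcagttc
miR-132-3p, A_54_P1054: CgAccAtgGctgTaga
miR-212-3p, A_54_P2617: TgGccGtgActgGa
miR-155-5p, A_54_P2337: acccctatcacaattagC
miR-155-5p, A_54_P2336: acccctatcacaattag
For miR-155-5p both probes are shown, and the capital is the 1 base that the longer one adds. The miR-146a-5p and miR-146b-5p probes, 19 bases each, differ at 2 bases, and the longest run of the miR-146a-5p probe that also pairs with miR-146b-5p is 14 bases. For the miR-155-5p probe of 18 bases, the longest run that pairs with any other mature miRNA of the table is 8 bases. The miR-212-3p probe holds 14 bases, of which 64.3% are G or C, against 42.1% for the miR-146 probes and 44.4% for the longer miR-155-5p probe.

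Signals were scaled per array to the 75th percentile of its well-detected probes and are given on the log2 scale, on which 3.75 is the floor below which no order is read. A probe counted as detected on an array where the scanner software marked at least a share of 0.5 of its spots as well above background. Between 405 and 554 miRNAs were detected per array, and the 470 found on 3 or more arrays of the LPS or the cesarean group were tested. All 8 arrays lay on 1 slide with each group in a row of its own, so slide row and group cannot be told apart. Because signal per molecule differs between probes, the level of a probe was read against itself on other arrays. The marker sums given below add probes of different miRNAs, so the brightest probes weigh most in them.

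Of the 10 TLR4-induced miRNAs, 5 could be tested: miR-155-5p, miR-146a-5p, miR-146b-5p, miR-21a-5p and miR-212-3p. In LPS exosomes miR-155-5p was higher and passed the test. The values of miR-146a-5p were higher and those of miR-146b-5p mostly lower, and neither passed. For miR-21a-5p and miR-212-3p the groups overlapped. The 1 miRNA called of the 5, 1 higher and 0 lower, stands beside 23 of 470 (4.89%) over the whole array, 12 higher (2.55%) and 11 lower (2.34%). Other scalings moved that split to 9 higher and 4 lower (75th percentile over all probes) and 23 higher and 12 lower (quantile normalization), and left 0 higher and 1 lower both with no scaling and with spike-in scaling. At an unadjusted p of 0.05, 3 of the 5 and 117 of the 470 (24.9%) passed. The groups did not overlap for 2 of the 5, and for 80 of the 470 (17.0%). The median log2 difference of the 5 was 0.36, beside -0.06 for the 470, and 3 of the 5 had a higher mean with LPS, beside 45.5% of the 470. With 5 miRNAs tested, nothing particular to the group as a whole is read from these counts.

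**Figure D1:**
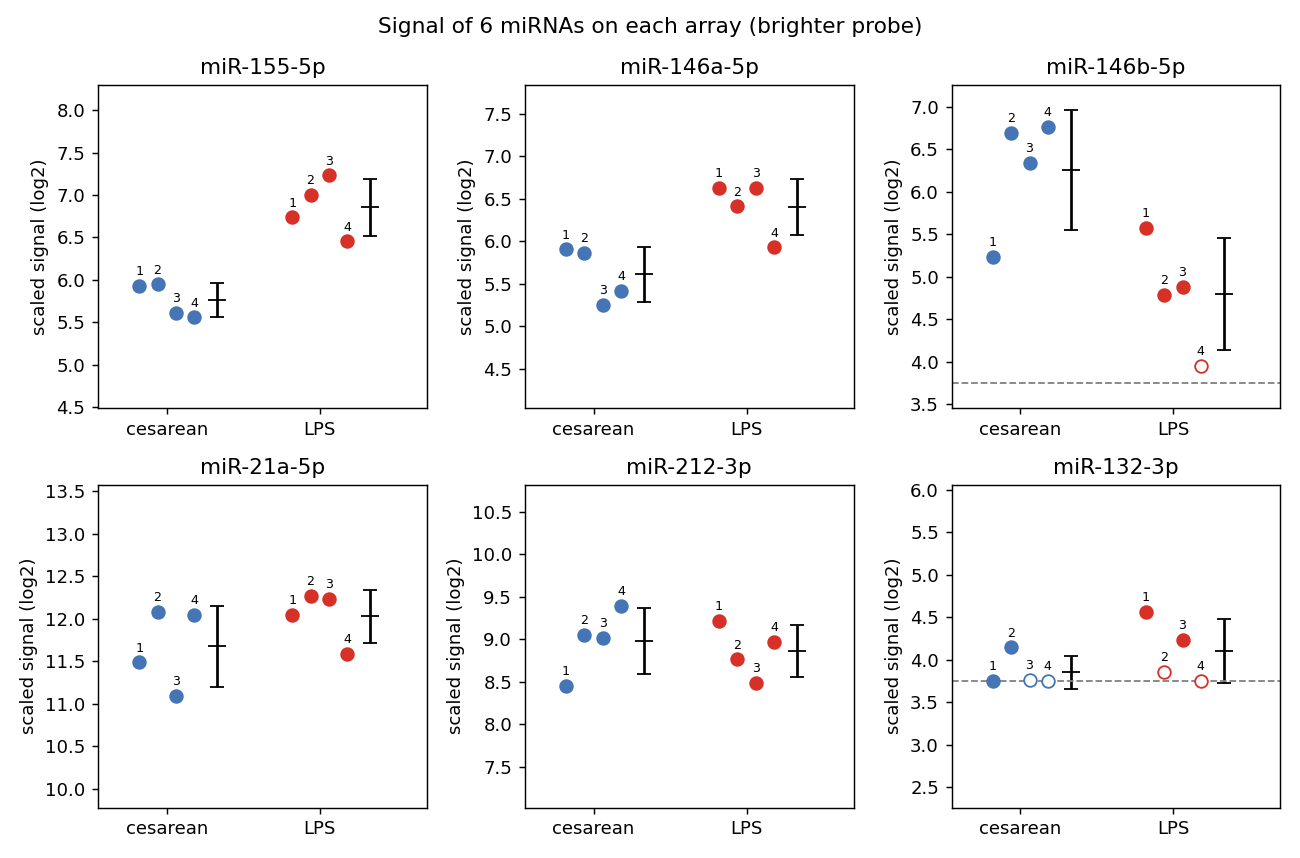
Scaled log2 signal of the brighter probe of 6 miRNAs on each array, numbered by replicate, for cesarean (blue) and LPS (red) samples. Bars are the mean ± SD (n = 4), open points were not well above background, and the dashed line is the floor of 3.75. The 4 LPS arrays lie above the 4 cesarean arrays for miR-155-5p and miR-146a-5p, while the groups overlap for the others. Every panel spans the same number of log2 units.

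miR-155-5p, the inflammatory amplifier, is made from the long non-coding host gene Mir155hg. Its longer probe is listed at chr16:84714394-84714410 on the plus strand of the mm9 build. The LPS arrays 1 to 4 read 6.74, 7.0, 7.23 and 6.45 (log2 level), and the cesarean arrays 1 to 4 read 5.93, 5.95, 5.62 and 5.56. The lowest LPS array lay above the highest cesarean array, so the groups did not overlap. The means were 6.85 ± 0.33 with LPS and 5.76 ± 0.20 at cesarean section (SD, n = 4 each). The difference of 1.09 ± 0.24 (SE), a 2.13-fold rise, passed limma with an adjusted p of 0.0329, and ranked 13 of 470 by p. Within an array, the 14 to 15 spots of this probe varied with a median coefficient of variation of 6.74% over the 8 arrays, which measures spot noise and not the spread between samples. The shorter probe, which reads the same RNA and is no further replicate, gave 5.35, 5.61, 5.79 and 5.15 on LPS arrays and 4.37, 4.57, 4.35 and 4.39 on cesarean arrays. The groups did not overlap on it either, and its difference was 1.06 ± 0.22 (SE; limma adjusted p = 0.0300 over 887 probes). On that scale of single probes, 51 of 887 (5.75%) passed, 25 of them higher (2.82%) and 26 lower (2.93%), and both miR-155-5p probes were among the 25.

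The rise of miR-155-5p had the same direction under all 24 alternatives run, from 0.65 to 1.23, but it passed the test under only 12 of them. Leaving out a single array ended the call in 6 of 8 cases, with limma adjusted p = 0.0756, 0.0591, 0.0809 and 0.0841 without cesarean 1 to 4, 0.0872 without LPS 2 and 0.106 without LPS 3. It held without LPS 1 (0.0240) and without LPS 4 (0.0268). The partner strand of the same hairpin, miR-155-3p, was not well above background on any of the 8 arrays by either of its 2 probes, whose unscaled signals lay between -0.99 and 0.31.

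**Figure D2:**
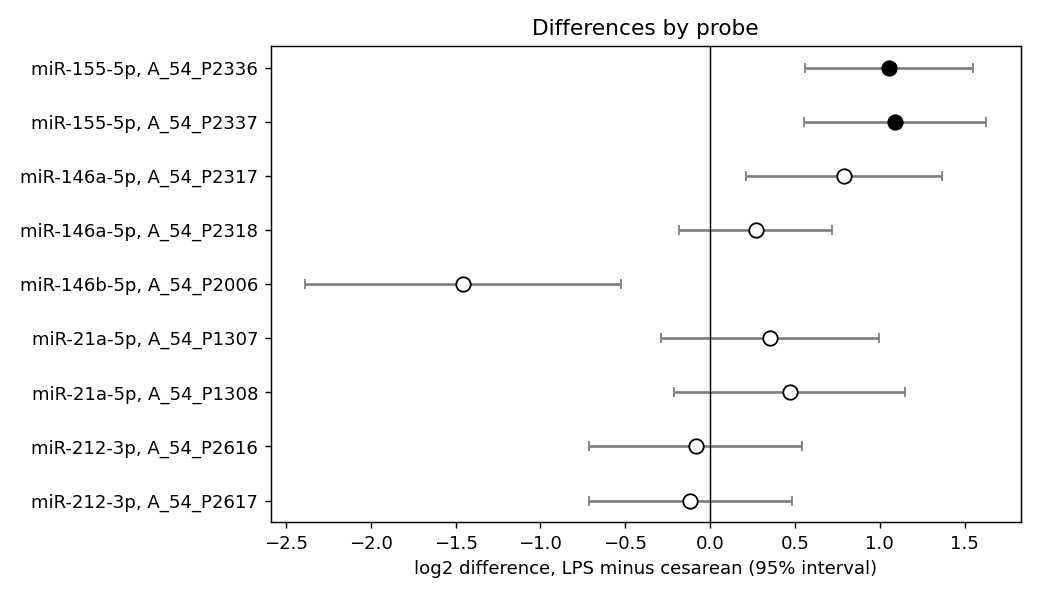
Log2 difference, LPS minus cesarean, for each of the 9 tested probes of 5 TLR4-induced miRNAs, with 95% intervals from limma (n = 4 per group). Filled points passed an adjusted p of 0.05. Both miR-155-5p probes lie near 1.1, and the miR-146b-5p probe is the one whose interval lies wholly below 0.

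miR-146a-5p, the brake on Irak1 and Traf6, is encoded on chromosome 11, with its longer probe at chr11:43187908-43187925 (mm9, listed on the minus strand). The LPS arrays read 6.63, 6.41, 6.63 and 5.93 and the cesarean arrays 5.90, 5.87, 5.25 and 5.42 (log2 level). The lowest LPS array was just above the highest cesarean array, so the groups did not overlap. The means were 6.40 ± 0.33 and 5.61 ± 0.33 (SD, n = 4 each), a difference of 0.79 ± 0.26 (SE; 1.73-fold; limma adjusted p = 0.0903), which did not pass. Its value was positive under all 24 alternatives, between 0.43 and 0.95, and passed under 0 of them (adjusted p from 0.0607 to 0.572). The shorter probe was detected on 3 of 4 LPS arrays and 2 of 4 cesarean arrays. It was at the floor on all 4 cesarean arrays and on LPS array 4, and at 4.15, 4.01 and 4.17 on LPS arrays 1 to 3, so its difference of 0.27 ± 0.20 (SE) rests on the floor. The partner strand miR-146a-3p was not well above background on any array.

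miR-146b-5p has the seed of miR-146a-5p but a gene of its own on chromosome 19, where the longer probe is listed at chr19:46417284-46417301 (mm9, plus strand). The LPS arrays read 5.57, 4.78, 4.88 and 3.95 and the cesarean arrays 5.23, 6.70, 6.33 and 6.76 (log2 level). Cesarean array 1 was low in its group and lay below LPS array 1, so the groups overlapped, and LPS array 4 was not well above background. The means were 4.80 ± 0.66 and 6.25 ± 0.71 (SD, n = 4 each). The difference of -1.46 ± 0.42 (SE; 2.75-fold lower; limma adjusted p = 0.0692) did not pass. Without LPS array 1 it was -1.72 and passed (adjusted p = 0.0237), and it was -1.80 without cesarean array 1 (adjusted p = 0.0656). Over all 8 cases with an array left out it lay between -1.80 and -1.18 and passed in 1 (limma adjusted p up to 0.155). With another background correction, normexp, it shrank to -0.53 (limma adjusted p = 0.287). The shorter miR-146b-5p probe was detected on 2 cesarean arrays and on 0 of 4 LPS arrays, too few to be tested, at 4.43 on cesarean array 2 and 4.65 on cesarean array 4. The partner strand miR-146b-3p was not well above background on any array.

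Against each other within an array, the miR-146 relatives moved apart. The log2 signal of miR-146a-5p minus that of miR-146b-5p was 1.06, 1.63, 1.75 and 1.98 on LPS arrays, and 0.68, -0.83, -1.08 and -1.34 on cesarean arrays. All 4 LPS arrays lay above all 4 cesarean arrays. The mean was 1.60 ± 0.39 with LPS and -0.64 ± 0.90 at cesarean section (SD, n = 4 each), so the balance of these relatives differed by 2.25 on the log2 scale (two-sided exact permutation test, p = 0.0286, adjusted p = 0.0429 over 3 pairs). That p is the smallest that the 70 allocations of 8 arrays can give. Such a difference is free of any factor that scales a whole array, though the offset between 2 probes has no meaning in itself. It shows unequal change, not which of the relatives changed. With LPS array 1 to 4 left out in turn, the adjusted p lay between 0.0857 and 0.129.

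**Figure D3:**
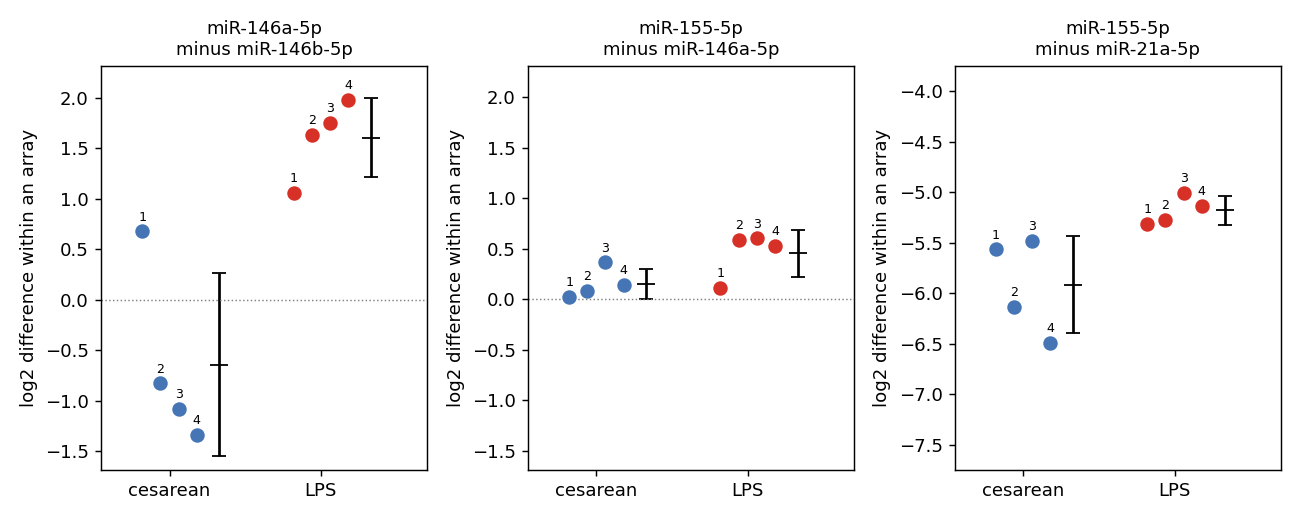
Within-array log2 difference of 3 pairs of miRNAs on each array, numbered by replicate, for cesarean (blue) and LPS (red) samples, with the mean ± SD (n = 4). The groups do not overlap for miR-146a-5p minus miR-146b-5p or for miR-155-5p minus miR-21a-5p, and they overlap for miR-155-5p minus miR-146a-5p.

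The other pairs set miR-155-5p against miR-146a-5p, amplifier against brake, and against miR-21a-5p. Relative to miR-146a-5p, miR-155-5p read 0.11, 0.59, 0.60 and 0.53 on LPS arrays and 0.02, 0.08, 0.36 and 0.14 on cesarean arrays, with LPS array 1 inside the cesarean range. The difference between the groups was 0.30 (exact permutation p = 0.0857, adjusted p = 0.0857), which does not show that the pair moved alike. Relative to miR-21a-5p, it read -5.31, -5.27, -5.0 and -5.13 on LPS arrays and -5.56, -6.13, -5.48 and -6.49 on cesarean arrays, without overlap. miR-155-5p thus rose relative to miR-21a-5p by 0.74 (exact permutation p = 0.0286, adjusted p = 0.0429). That value fell to 0.42 with quantile normalization (adjusted p = 0.257) and to 0.32 with another background correction, normexp (adjusted p = 0.257). With LPS array 1 to 4 left out in turn it no longer passed (adjusted p between 0.0857 and 0.129).

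For miR-146b-5p the direction depended on which summary of the array was read. By the total per miRNA that the scanner software writes, its difference was 0.49 (limma adjusted p = 0.524), the opposite sign to its probe. On the 4 cesarean arrays that total was 20.2, 45.02, 21.4 and 30.9 in unscaled units, equal within 0.001% to the sum of the 2 miR-146b-5p probes. On LPS arrays 1 to 4 the total was 38.7, 33.5, 61.0 and 19.0, while the sum of its own 2 probes was 13.5, 8.19, 14.2 and 4.01. On each LPS array the total equalled, within 0.001%, the brighter miR-146b-5p probe plus the whole total of miR-146a-5p (27.5, 26.3, 48.7 and 15.7). The software total for miR-146b-5p thus held miR-146a-5p signal on the LPS arrays and not on the cesarean arrays. Totals more than 10% above the sum of a miRNA's own probes occurred on every array, for 20.3% to 24.3% of the miRNAs that the software called detected. Among the 6 TLR4-induced miRNAs that the software called detected, this concerned 0 on each cesarean array and 1, miR-146b-5p, on each LPS array. The miR-146a-5p total lay below the sum of its own probes on cesarean arrays 3 (8.45 against 10.29) and 4 (9.91 against 11.62). On cesarean arrays 1 and 2 and on every LPS array it matched that sum.

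**Figure D4:**
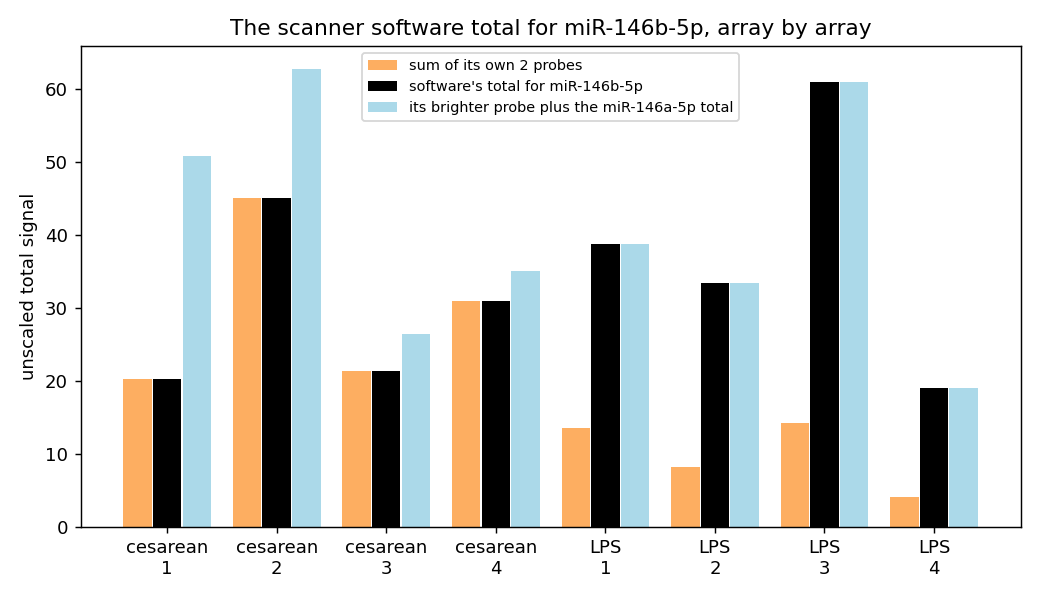
Unscaled signal for miR-146b-5p on each array: the sum of its own 2 probes (orange), the scanner software's total (black), and its brighter probe plus the miR-146a-5p total (light blue). The black bar matches the orange bar on the 4 cesarean arrays and the light blue bar on the 4 LPS arrays.

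miR-21a-5p, a repressor of Pdcd4, comes from a hairpin within the gene Vmp1 on chromosome 11, and its longer probe is listed at chr11:86397588-86397607 (mm9, minus strand). The LPS arrays read 12.05, 12.27, 12.23 and 11.59 and the cesarean arrays 11.49, 12.08, 11.09 and 12.05 (log2 level). The groups overlapped, with LPS array 4 below cesarean arrays 2 and 4. The difference was 0.36 ± 0.29 (SE), with a 95% interval from -0.29 to 1.0 (limma adjusted p = 0.473), so a 2-fold rise is at the edge of the interval. The shorter probe gave 0.47 ± 0.31 (SE; limma adjusted p = 0.352), with a 95% interval from -0.21 to 1.15, so a 2-fold rise lies within that interval. Under the 24 alternatives miR-21a-5p lay between 0.16 and 0.68 and passed under 0 of them. The partner strand miR-21a-3p and the relatives miR-21b and miR-21c were not well above background on any array.

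miR-212-3p and miR-132-3p lie side by side on chromosome 11, with probes at chr11:74986954-74986966 and chr11:74987232-74987246 (mm9, both plus strand). miR-212-3p read 9.22, 8.76, 8.49 and 8.97 on LPS arrays and 8.45, 9.05, 9.02 and 9.39 on cesarean arrays (log2 level), with the groups interleaved. Its difference was -0.12 ± 0.27 (SE), with a 95% interval from -0.72 to 0.48 (limma adjusted p = 0.847). The sign turned, to 0.021 without cesarean array 4 and to 0.0074 without LPS array 3. Its second probe gave -0.09 ± 0.28 (SE).

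miR-132-3p was detected on LPS arrays 1 and 3 and cesarean arrays 1 and 2, and so on too few arrays of either group to be tested. It read 4.56, 3.85, 4.24 and 3.75 on LPS arrays and 3.75, 4.14, 3.76 and 3.75 on cesarean arrays, at or near the floor. The detected arrays belonged to both groups, and no direction was read. Its shorter probe was at the floor on all 8 arrays. The partner strands miR-132-5p and miR-212-5p were not well above background on any array.

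miR-147-3p and miR-187-3p, each read by 4 probes, were also not well above background on any array. Their unscaled signals lay between -2.73 and 0.74 and between -4.20 and -1.05. With miR-155-3p and miR-21a-3p, 4 of the 10 TLR4-induced miRNAs therefore had no array with a measured level, and neither had any of the 8 partner strands and relatives looked at beside them (miR-132-5p, miR-146a-3p, miR-146b-3p, miR-147-5p, miR-187-5p, miR-212-5p, miR-21b and miR-21c). At this signal over background a difference in these miRNAs was not detectable, which does not show that they were absent.

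**Figure D5:**
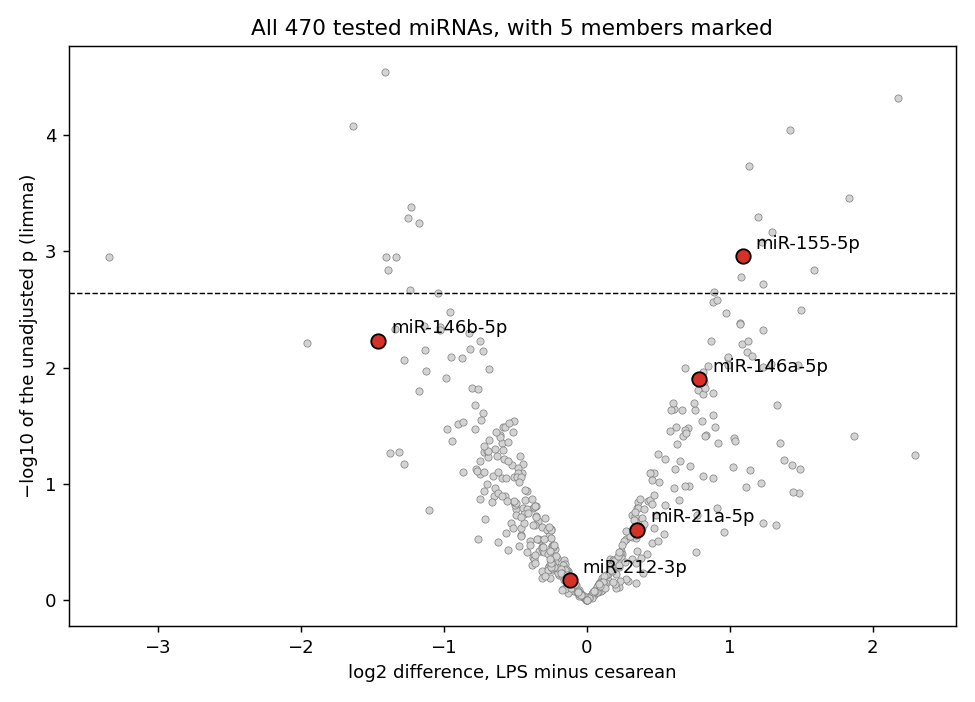
Log2 difference, LPS minus cesarean, against −log10 of the unadjusted limma p for all 470 tested miRNAs (grey), with the 5 tested TLR4-induced miRNAs in red. Points on or above the dashed line passed an adjusted p of 0.05. Of the 5, miR-155-5p lies above the line, and miR-146b-5p and miR-146a-5p lie below it on opposite sides of 0.

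The wider LPS response of macrophages was described by 12 further miRNAs, all on the array and 11 tested. In limma, 0 of the 11 passed and 3 had an unadjusted p under 0.05, a share near the 24.9% of all 470, with a median log2 difference of 0.09 beside -0.06. The 4 with the smallest p pointed in both directions. miR-125b-5p, which LPS lowers in macrophages and which targets Tnf, was -0.95 ± 0.29 (adjusted p = 0.0769), with the groups not overlapping. miR-34a-5p, a p53 target, was 0.81 ± 0.26 (adjusted p = 0.0843), also without overlap. miR-222-3p was 0.78 ± 0.27 (adjusted p = 0.104) and let-7e-5p 0.66 ± 0.31 (adjusted p = 0.223), both with overlap (log2 difference ± SE throughout). The neural and NF-κB-induced miR-9-5p was detected on 0 LPS arrays and 2 cesarean arrays and was not tested.

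Another 12 miRNAs are known to target parts of TLR4 and NF-κB signalling, and all 12 were tested. Of these, 2 rose, 1 fell and 9 did not pass, beside 2.55% higher and 2.34% lower of all 470, with a median log2 difference of 0.42 beside -0.06. This list, like the one above and the marker lists below, was written with earlier results of these data known. No enrichment is read from its counts or from theirs. miR-200c-3p (1.42 ± 0.23, adjusted p = 0.0107) and miR-200b-3p (1.08 ± 0.25, adjusted p = 0.0408), which target the TLR adaptor MyD88 and mark epithelium, rose. miR-181b-5p (-1.63 ± 0.26, adjusted p = 0.0107), which represses importin-α3 and so NF-κB import, fell. let-7i-5p, which targets Tlr4 itself, was 0.87 ± 0.25 (adjusted p = 0.0692), with the groups not overlapping. miR-199a-3p was -0.98 ± 0.32 (adjusted p = 0.0903), miR-145a-5p 0.71 ± 0.29 (adjusted p = 0.166) and miR-149-5p -0.64 ± 0.29 (adjusted p = 0.2001), the last on the floor on LPS arrays (log2 difference ± SE throughout). By the software total miR-145a-5p turned to -0.41. The call of miR-200b-3p held under 11 of 24 alternatives and was lost without any of cesarean 1 to 4, LPS 2 or LPS 3 (adjusted p up to 0.131). That of miR-200c-3p held under 19 of 24, lost without cesarean 3 (adjusted p = 0.0551), and that of miR-181b-5p under 20 of 24, including all 8 with an array left out.

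Cell-type marker miRNAs moved with the groups in part. Of 5 leukocyte markers 3 were tested and 1, miR-142a-3p, rose (1.23 ± 0.26 SE, limma adjusted p = 0.0325), beside 2.55% of all 470. On cesarean arrays miR-142a-3p read 3.75 to 4.26, at or near the floor. In contrast, miR-223-3p was 0.09 ± 0.25 and miR-342-3p was -0.45 ± 0.30 (SE), and neither passed. The call of miR-142a-3p held under 9 of 23 alternatives, with values from 0.31 to 1.65, and was lost without any of cesarean 1 to 4, LPS 2 or LPS 3 (adjusted p up to 0.0972). miR-142a-5p and miR-150-5p were each detected on at most 2 arrays of a group. The summed scaled signal of the 5 ranged from 656 to 939 on LPS arrays and from 712 to 916 on cesarean arrays. All 7 epithelial markers were tested and 3 rose (miR-200c-3p, miR-200b-3p, miR-200a-3p), beside 2.55% of all 470, with sums from 1590 to 4148 and from 899 to 1198. miR-429-3p, miR-141-3p and miR-203-3p were higher without passing (limma adjusted p = 0.0510, 0.0565 and 0.242), and miR-205-5p was -0.17 ± 0.64 (SE). miR-203-3p read 10.72, 6.75, 8.56 and 6.88 on LPS arrays 1 to 4 (log2 level), so the sums do not show that all these markers rose together. Like miR-200b-3p, miR-200a-3p kept its call without LPS 1 or LPS 4 and lost it without any other array (adjusted p up to 0.133). All 3 erythroid markers on the array were tested and 1 rose, beside 2.55% of all 470. This was miR-144-3p, detected on 4 LPS and 0 cesarean arrays and at least 2.20-fold higher (limma adjusted p = 0.0172). That bound is set by the floor, since doubling the floor leaves a log2 difference of 0.14. The call of miR-144-3p was lost without cesarean 1, 2 or 3 or LPS 2 (adjusted p up to 0.0666). The other erythroid markers, miR-451a (0.99 ± 0.31 SE, limma adjusted p = 0.0812) and miR-486a-5p (0.83 ± 0.35 SE, adjusted p = 0.172), did not pass. All 3 erythroid markers had an unadjusted limma p under 0.05, beside 24.9% of all 470. The erythroid sums ranged from 14042 to 30955 and from 8687 to 15750. They were set mostly by miR-451a, which read 13.06 to 14.90 over the 8 arrays (log2 level). On no array did miR-486a-5p exceed 8.55 or miR-144-3p exceed 5.11. The sums of 2 endothelial markers ranged from 266 to 384 and from 248 to 540. The part of these cells in the miR-155-5p and miR-146 values was not tested.

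The miRNAs most like each of these across the 8 arrays were sought among 334 others detected on all 8, as a description over arrays that share a slide, a scaling and the group difference. For miR-155-5p they were let-7d-5p (Pearson r = 0.955), miR-98-5p (0.938) and miR-200c-3p (0.930). For miR-146a-5p they were let-7i-5p (0.945), miR-26b-5p (0.908) and miR-98-5p (0.902). For miR-146b-5p they were miR-2137 (0.888), miR-8109 (0.888) and miR-2861 (0.887), none of which is among those nearest to miR-146a-5p. For miR-21a-5p they were miR-500-3p (0.984), miR-152-3p (0.928) and miR-185-5p (0.910).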

How the data were processed

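Spot intensity values were deposited per array as linear, background-subtracted signals, read with Agilent Feature Extraction 10.7.1.1 per the file headers (the submitters' processing notes name 9.1), with positions on mm9. The authors' deposited value table holds log2 values with column medians from 2.13 to 2.14. Its normalization is not stated in the labels, and it served as an alternative, since each column matched its own array best (r from 0.964 to 0.972).

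Control and outlier spots were left out, spots averaged per probe, and each array scaled to the 75th percentile over 618 probes detected on all arrays. Signals were then floored at 13.5, and the brightest probe stood for a miRNA. LPS was set against cesarean with R 4.3.3 and limma 3.58.1 (lmFit, then eBayes, two-sided, Benjamini-Hochberg over all tested features, threshold 0.05), and within-array pairs by exact permutation. The fit was tested on simulated data. Arrays give no counts, so their number limits the precision. The 8 arrays were grouped by their labels, and replicates are numbered in order of deposition.

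The 10 miRNAs were listed by name, on what is known of TLR4 and not by a rule on signal, but this listing and the choice of pairs and other lists were made with earlier results of these data known. All 10 listed miRNAs are named with their relatives, and from each signalling list those that passed and the 4 others of smallest p. For 4 of them the 3 miRNAs of highest correlation are named. The alternatives changed the scaling, the background correction, the source or summary of the values, the floor, the filter, the limma settings, the slide column, the outlier spots, or left an array out. Other tools were numpy 2.4.6, pandas 2.3.3 and matplotlib 3.10.9, and in R the data.table package, 1.17.8.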

Additional observations from a re-analysis of the deposited data

Results flagged for a closer look

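In 2 of 77 groups of 4 arrays, a sample lay apart from the other 3 by Dixon's test, which chance would do for about 1 in 20 groups. For miR-155-5p minus miR-146a-5p on LPS arrays, LPS array 1 read 0.11 where the other 3 lay between 0.53 and 0.60, a gap of 0.844 of the whole range. For let-7i-5p on cesarean arrays the gap was also 0.844 of the range.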

How the results depend on the processing

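The count of TLR4-induced miRNAs past the test was 1, and it fell to 0 with scaling to the 75th percentile over all probes, with no scaling, with spike-in scaling, with the software total per miRNA, with no filter and with the slide column as a replicate block. The count over all miRNAs, 23, was then 13, 1, 1, 6, 2 and 1 in that order, and it was 35 with quantile normalization, 15 with normexp and 15 over miRNAs detected on all 8 arrays. The count of their probes past the test, 2, was 0 with the all-probe percentile, no scaling, spike-in scaling, no filter and the slide column as a block, and 1 with normexp. With 1 array left out the counts ranged from 0 to 2 miRNAs, from 0 to 3 probes and from 3 to 79 of all miRNAs, the highest without LPS 1. No scaling and spike-in scaling moved the median of all miRNAs from -0.06 to -0.20, and miR-155-5p read 0.95 and 0.96 there (limma adjusted p = 0.400 and 0.435). The labels pair no samples, and each slide column merely holds 1 array of each group.

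Of the pairs, miR-146a-5p minus miR-146b-5p no longer passed with quantile normalization (2.25), normexp (0.97), the value table (2.15) and the software total (0.41), and ranged from 2.01 to 2.69 with 1 array left out. miR-155-5p minus miR-21a-5p no longer passed with quantile normalization (0.42), normexp (0.32), the value table (0.52) and the software total (0.70). With 1 array left out it ranged from 0.55 to 0.88. Like the miR-146 pair, it kept its call when a cesarean array was left out and lost it when any LPS array was. Leaving out an array of either group leaves the exact test equally many allocations, fewer than with all arrays. Why the calls were lost only without an LPS array was not tested, nor whether either difference rested on an LPS array. miR-155-5p minus miR-146a-5p passed with the mean over probes (0.54, adjusted exact p = 0.0286) and ranged from 0.25 to 0.42 with 1 array left out. For the software total, the sums given above show the cause for miR-146b-5p; elsewhere the cause was not tested.

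Signs turned for miR-146b-5p (0.49) and miR-145a-5p (-0.41) by the software total. For miR-212-3p the probe A_54_P2616 turned to 0.012 with the all-probe percentile. With 1 array left out, miR-212-3p and its brighter probe ranged from -0.29 to 0.021 and A_54_P2616 from -0.28 to 0.064, positive without cesarean 4 or LPS 3 only.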

Other observations

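In the authors' deposited table, the 4 TLR4-induced miRNAs that no array measured above background sat near the column medians of 2.13 to 2.14. miR-155-3p lay between 2.03 and 2.10, miR-21a-3p between 2.02 and 2.10, miR-147-3p between 1.99 and 2.02, and miR-187-3p between 1.96 and 2.01. In that table miR-132-3p read 4.14, 3.06, 3.74 and 2.78 on LPS arrays 1 to 4 and 2.86, 3.55, 3.11 and 3.05 on cesarean arrays 1 to 4, with the groups overlapping as in the scanner signals.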
